A study of Mus musculus with 20 samples.

Results

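The transcripts described here encode 10 proteins of the H3K9 methylation and HP1 silencing machinery in mouse embryonic stem cells (ESCs): the methyltransferases Setdb1, Ehmt1, Ehmt2, Suv39h1 and Suv39h2, the corepressor Trim28, the HP1 proteins Cbx1, Cbx3 and Cbx5, and the chromatin remodeller Atrx. They were chosen as a named list of genes, without a threshold on measured values. All 10 were among the 23284 genes in each of the 20 libraries, and all 10 passed the filter on low counts together with 13710 genes in all. The RIP-Seq experiment recovered RNA with an anti-Flag antibody (IP) from ESCs in which an endogenous Tet protein carried a C-terminal triple tag of Flag, HA and Twin-Strep, and sequenced it beside RNA that was not immunoprecipitated (input). The Tet1-KI line had 2 pairs of IP and input, the Tet2-KI line had 4, and a line whose tagged Tet2 lacks its RNA-binding domain (Tet2dRBD) had 4. All lines were made from wild-type mouse ESCs by CRISPR-Cas9n with picked clones, grown on gelatin in serum and LIF, and the labels name no other agent. The number of clones behind each line is not given in the sources used here, so the effect of a line and that of its clone cannot be told apart. The IP was made from cytoplasmic extract and the input was total RNA, and the part of this difference in the IP over input values was not tested.

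Methylation of lysine 9 of histone H3 marks silent chromatin. Setdb1 is brought to retrotransposons by Trim28, which itself is recruited by KRAB zinc finger proteins. Ehmt1 and Ehmt2 (GLP and G9a) work as a heterodimer that places mono- and dimethylation in euchromatin, and Suv39h1 and Suv39h2 place trimethylation at pericentric repeats. HP1 proteins bind the methylated lysine through a chromodomain: Cbx5 is HP1α, Cbx1 is HP1β and Cbx3 is HP1γ. Atrx deposits the histone variant H3.3 at repeats and telomeres together with Daxx. In ESCs this machinery is known for holding endogenous retroviruses silent. Tet enzymes oxidise 5-methylcytosine, and the RIP-Seq experiment asked which transcripts were recovered with Tet1 and Tet2 and whether the recovery depended on the RNA-binding domain of Tet2.

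In the Tet2 line, transcripts of Atrx, Ehmt1 and Setdb1 were higher in IP than in input and those of the HP1 genes Cbx1 and Cbx3 were lower. Of all tested genes, 14.6% were called higher there and 18.5% lower. Of 20 alternative settings, 15 kept the call of Atrx, 16 that of Setdb1, 18 that of Ehmt1 and 19 those of Cbx1 and Cbx3. The fitted IP over input ratio was 2.14-fold for Atrx, 1.49-fold for Ehmt1 and 1.42-fold for Setdb1, against 0.542-fold for Cbx1 and 0.515-fold for Cbx3. In the Tet2dRBD line Cbx1 and Cbx3 were again lower, at 0.676-fold and 0.682-fold, where 12.1% of all tested genes were lower. These calls were kept in 6 and 14 of 20 settings. No member was called higher there, where 7.4% of all tested genes were. In the Tet1 line no member passed the test on all libraries, where 5.9% of all tested genes did. None of the 10 passed when the difference between Tet2 and Tet2dRBD or between Tet1 and Tet2 was itself tested. Of all 13710 tested genes, 0.0219% passed in the first comparison and 0 in the second, so these nulls are not particular to the members.

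Totals per library ranged from 21078995 to 37576638 expected counts. Of the 7 ESC markers, Pou5f1 was between 2000.3 and 3191.3 TPM in the inputs (a level scaled for transcript length and to one common total per library). Dppa5a was between 8953.2 and 12324, Tdgf1 between 669.9 and 2725.2 and Sox2 between 183.3 and 507.8. Nanog was between 176.5 and 342.9 and Esrrb between 165.3 and 393.8, while Zfp42 was the lowest, at 15.3 to 75.8. Of the 5 fibroblast markers, Postn and Dcn stayed under 1 TPM in every input and Thy1 ran from 8.43 to 35.8, with a summed level of 10.6 to 62.8 TPM. Of the 4 neural markers, Pax6 and Neurog2 stayed under 1 TPM and Tubb3 ran from 9.22 to 122.6, with a sum of 19.6 to 142.3, and the 4 trophoblast markers summed to between 1.58 and 5.99. The summed level of the 5 primitive endoderm markers (Gata6, Gata4, Sox17, Sox7 and Dab2) was 45.3 to 47.5 TPM in Tet1 inputs, 12.2 to 116.2 in Tet2 inputs and 59.1 to 148.3 in Tet2dRBD inputs. The part of these cells in the results was not tested, and in such bulk samples fewer cells of a type and less RNA per cell cannot be told apart. The numbering of the deposited data places the libraries in 3 sets, one with replicate 1 of Tet2 and Tet2dRBD, one with their replicate 2, and one with their replicates 3 and 4 and all Tet1 libraries. The labels do not say what these sets are, nor whether replicates came from separate cultures, so p-values measure the spread between these samples, which may in part be technical.

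In mm9, Setdb1 is at chr3:95127447-95161124 on the minus strand, Trim28 at chr7:13609501-13616384 on the plus strand, Ehmt1 at chr2:24646289-24775129 on the minus strand and Ehmt2 at chr17:35035414-35050997 on the plus strand. Suv39h1 is at chrX:7638297-7651886 and Suv39h2 at chr2:3373087-3392303, both on the minus strand. Cbx1 is at chr11:96650441-96669954 and Cbx3 at chr6:51420359-51433703, both on the plus strand, and Cbx5 at chr15:103021975-103070247 and Atrx at chrX:102992954-103124736 on the minus strand. The coding sequences of the HP1 genes are short, with 558 bases in Cbx1, 552 in Cbx3 and 576 in Cbx5, against a median of 1386 over the 12861 tested genes that matched an annotated transcript with both UTRs. Those of the methyltransferases Setdb1, Ehmt1 and Ehmt2 have 3927, 3891 and 3792 bases, Trim28 has 2505, Suv39h2 1434, Suv39h1 1242 and Atrx 7431. Tet enzymes act on cytosine, so the longest uninterrupted stretch of C and T in the coding sequence is shown for 6 members with higher, near-zero and lower fitted IP over input ratios, read from the mm9 annotation, 5′ to 3′ on the strand of the gene, with the stretch in capitals and up to 6 bases on each side in lower case:
Setdb1, exon 11, chr3:95144094-95144121: cctataCCTCCTCTTTCCCCCCaagcag
Ehmt2, exon 3, chr17:35036616-35036642: aagtcgTTCCCCTCTTCCCCCagcaag
Atrx, exon 9, chrX:103071802-103071824: ccccagTTTCCCTTTCTaattcc
Suv39h2, exon 3, chr2:3381788-3381806: agactgCTTCTTTgacaag
Cbx1, exon 5, chr11:96667994-96668012: gtcataTCCTTCTatgagg
Cbx3, exon 3, chr6:51425340-51425357: ggagtaTTTCCTgaagtg
The stretch had 16 bases in Setdb1 and 15 in Ehmt2, lengths reached by 6.3% and 9.4% of tested genes, 11 in Atrx, 7 in Suv39h2 and in Cbx1, reached by 96.4%, and 6 in Cbx3, reached by 99.1%. The stretch of Ehmt1, with 15 bases, crosses an exon junction and is not printed. The median over tested genes was 10. A longer coding sequence has more room for a long stretch, but the relation of stretch length to coding length was not tested. The part of the stretch in the IP over input ratios was not tested, and it is given as a description only.

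In input RNA the members spanned a wide range of levels. By mean TPM over the 10 inputs, Trim28 was first with 749.7 ± 371.8 (SD, n = 10), followed by Cbx3 with 220.4 ± 42.1, Ehmt2 with 93.3 ± 40.1, Cbx1 with 72.6 ± 16.7 and Cbx5 with 29.9 ± 5.19. Setdb1 came next with 20.8 ± 4.36, then Ehmt1 with 16.3 ± 5.1, Suv39h1 with 15.0 ± 4.62, Suv39h2 with 5.46 ± 1.78 and Atrx with 1.8 ± 1.14. The neighbours Ehmt2 and Cbx1 were not separated, since Ehmt2 was the higher in 4 of 10 inputs, and neither were Ehmt1 and Suv39h1, with Ehmt1 the higher in 4 of 10. Every other neighbouring pair kept its order in at least 9 of the 10 inputs. Atrx, the lowest, still had at least 159 expected counts in each of the 20 libraries, on a transcript of 10174 effective bases.

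**Figure D1:**
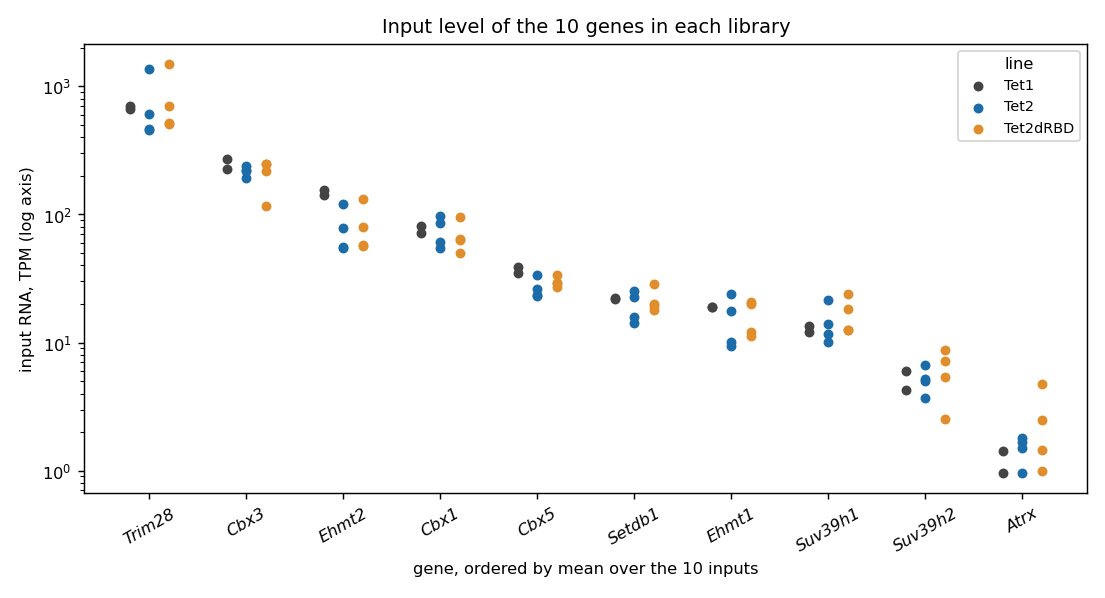
Input level of the 10 genes in TPM on a log axis, 1 point per input library, coloured by line and ordered by the mean over the 10 inputs. Trim28 lies between 456.4 and 1485.4 TPM in all inputs and Atrx between 0.96 and 4.77.

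Trim28 input was 672.1 and 704.5 TPM in Tet1, 613.2, 1377.5, 456.4 and 466.7 in replicates 1 to 4 of Tet2, and 697.8, 1485.4, 516.0 and 507.4 in Tet2dRBD. Replicate 2 was the highest in both Tet2 lines, far above their replicates 3 and 4. Ehmt2 input was 143.2 and 154.9 TPM in Tet1 and 77.9, 120.5, 54.7 and 55.3 in Tet2. The fitted log2 difference was 0.91 ± 0.39 (SE) and did not pass over all inputs (adjusted p = 0.52). No member was called between the Tet1 and Tet2 inputs, where 0.233% of 13310 tested genes were called higher in Tet1 and 0.173% lower. There 1 member had an unadjusted p under 0.05, as had 1212 of the 13310 genes. No member was called between the Tet2dRBD and Tet2 inputs either, with 0 members at an unadjusted p under 0.05, beside 340 of 13310 genes. That fit called 0 of all 13310 tested genes in either direction, so nothing about the members is read from it. DESeq2 also called 0 members in both comparisons, beside 2.8% of tested genes for Tet1 against Tet2 and 0.12% for Tet2dRBD against Tet2.

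The sets of libraries moved with these input levels. Within the inputs of the set that holds Tet1, an alternative planned for the comparison of Tet1 and Tet2, 6 members were higher in Tet1 than in Tet2, where 24.9% of tested genes were higher: Ehmt2 by a log2 difference of 1.33 ± 0.08, Ehmt1 by 0.83 ± 0.08, Cbx5 by 0.54 ± 0.06, Trim28 by 0.46 ± 0.07, Setdb1 by 0.45 ± 0.08 and Cbx1 by 0.28 ± 0.08. In the same fit, read for Tet2dRBD only after seeing the data, Atrx (0.99 ± 0.29), Setdb1 (0.32 ± 0.08) and Cbx5 (0.25 ± 0.06) were higher in Tet2dRBD than in Tet2, where 9.71% of tested genes were higher. Each group has 2 libraries in this fit.

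IP and input were first set side by side by level. In the study's methods, enrichment meant that TPM + 1 in IP exceeded that in input. Applied to every pair of the same number, this rule, which holds no test, placed 7 members above input in both Tet1 pairs, all but the 3 HP1 genes, where 50.9% of tested genes were above. The 3 HP1 genes were below input in both Tet1 pairs, as were 30.1% of tested genes. In Tet2, 6 members were above input in all 4 pairs (Setdb1, Trim28, Ehmt1, Ehmt2, Suv39h2 and Atrx), against 46.5% of tested genes, and Cbx1 and Cbx3 were below in all 4, against 11.9%. In Tet2dRBD, 4 members were above in all 4 pairs (Setdb1, Ehmt1, Cbx5 and Atrx), against 31.8%, and Cbx3 alone was below in all 4, against 8.56%.

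**Figure D2:**
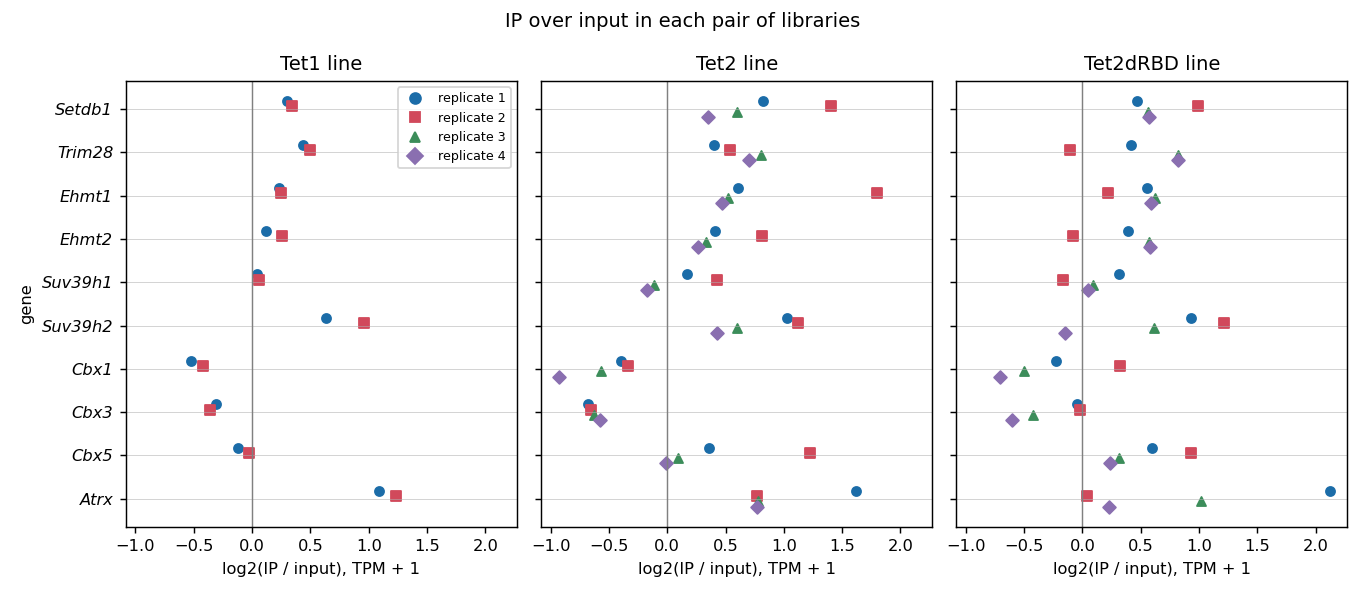
log2 of IP over input, from TPM + 1, for each member in each pair of libraries, 1 panel per line and 1 symbol per replicate number. Cbx3 lies left of 0 in all 10 pairs and Atrx right of 0 in all 10, and replicate 2 of Tet2 lies apart for Ehmt1 at 1.8 and Cbx5 at 1.22.

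The methyltransferase Setdb1 had 40.5, 69.0, 22.0 and 20.4 TPM in IP of Tet2 replicates 1 to 4, against 22.6, 25.5, 14.2 and 15.8 in their inputs. Its log2 ratio, from TPM + 1, was therefore 0.82, 1.40, 0.60 and 0.35, positive in each pair and highest in replicate 2. The fitted log2 ratio was 0.50 ± 0.15 (adjusted p = 0.026), a call lost without Tet2 replicate 1 or 2 and with replicates 3 and 4 summed (adjusted p = 0.051). In Tet2dRBD the IP levels of Setdb1 were 40.3, 36.7, 29.9 and 29.0 TPM against 28.7, 18.0, 19.9 and 19.2 in input, with a fitted log2 ratio of 0.40 ± 0.15 that did not pass (adjusted p = 0.088). In Tet1 they were 27.3 and 28.2 against 22.1 and 22.1, a fitted log2 ratio of 0.18 ± 0.21. All 10 pairs thus had more Setdb1 in IP by TPM.

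Trim28, the corepressor that brings Setdb1 to its targets, had a fitted log2 ratio of 0.29 ± 0.15 in Tet2 (adjusted p = 0.16), 0.21 ± 0.15 in Tet2dRBD (0.34) and 0.32 ± 0.21 in Tet1 (0.41), none of which passed. By TPM it was above input in 9 of the 10 pairs, the exception being replicate 2 of Tet2dRBD with 1375.7 TPM in IP and 1485.4 in input. The set of libraries that holds Tet1, with 2 pairs per line, was fitted alone after seeing the data. There Trim28 was called higher in IP in all 3 lines. Its log2 ratios were 0.29 ± 0.07, 0.54 ± 0.07 and 0.55 ± 0.07 in Tet1, Tet2 and Tet2dRBD. Of all tested genes, 19.6%, 24.7% and 24.2% were called higher in that fit.

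The partners Ehmt1 and Ehmt2 differed in the Tet2 line in whether they passed, a difference between the genes that was not tested. Ehmt1 had 27.5, 85.5, 14.1 and 14.4 TPM in IP and 17.6, 23.8, 9.48 and 10.1 in input. Replicate 2 lay apart, with a log2 ratio of 1.80 against 0.47 to 0.61 in the others. Ehmt1 passed at a fitted log2 ratio of 0.57 ± 0.17 (adjusted p = 0.022). Without Tet2 replicate 2 it fell to 0.31, still past the threshold (adjusted p = 0.040), and with the Tet2 line fitted alone the call was lost (adjusted p = 0.077). Ehmt2 had a fitted log2 ratio of 0.14 ± 0.11 in Tet2 (adjusted p = 0.33), although its TPM was above input in each of the 4 pairs, by 0.26 to 0.81 on the log2 scale. In Tet2dRBD neither passed, at 0.25 ± 0.16 for Ehmt1 and 0.09 ± 0.11 for Ehmt2, and in Tet1 they were at 0.11 ± 0.23 and 0.04 ± 0.15.

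Of the Suv39h enzymes, Suv39h2 had more RNA in IP in 9 of 10 pairs, with fitted log2 ratios of 0.60 ± 0.22 in Tet2 (adjusted p = 0.061), 0.49 ± 0.23 in Tet2dRBD (0.15) and 0.77 ± 0.32 in Tet1 (0.18). Its IP levels in Tet2 were 14.5, 9.14, 8.12 and 7.39 TPM and its input levels 6.62, 3.68, 5.01 and 5.22. By TPM it was above input in all 4 pairs, as were 46.5% of tested genes, and the fitted ratio missed the threshold. Suv39h1 lay close to 0. Its fitted log2 ratios were -0.24 ± 0.10, -0.20 ± 0.09 and -0.10 ± 0.14 in Tet2, Tet2dRBD and Tet1, and its sign depended on the scaling, since limma on log2(TPM + 1) gave 0.08, 0.07 and 0.05.

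The HP1 transcripts differed in both Tet2 lines in whether they passed, a difference between the genes that was not tested. Cbx3, which encodes HP1γ, had 139.7, 123.6, 153.3 and 145.6 TPM in Tet2 IP against 224.1, 194.4, 238.2 and 218.7 in input. By TPM it was below input in all 4 pairs, as were 11.9% of tested genes. Its log2 ratios were -0.68, -0.65, -0.63 and -0.58, the narrowest spread of any member in this line (SD 0.04, n = 4). The fitted log2 ratio of Cbx3 was -0.96 ± 0.13 (adjusted p = 0.00056). In Tet2dRBD the IP values of 240.3, 114.3, 162.0 and 164.0 TPM stood against inputs of 248.6, 116.3, 217.2 and 248.8, so that replicates 1 and 2 changed by only -0.05 and -0.02 and replicates 3 and 4 by -0.42 and -0.60. Cbx3 passed there at a fitted log2 ratio of -0.55 ± 0.13 (adjusted p = 0.015), but not without replicate 3 of Tet2dRBD and not on TPM, where limma gave -0.27. In Tet1 the levels were 217.9 and 177.0 TPM in IP and 270.0 and 227.6 in input, with a fitted log2 ratio of -0.48 ± 0.18 (adjusted p = 0.14). Cbx3 has processed pseudogenes in the mouse genome, and how RSEM divided reads shared with such copies was not tested, so its counts are reported as uncertain.

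Cbx1, which encodes HP1β, had 73.9, 68.1, 36.9 and 31.7 TPM in Tet2 IP and 97.6, 86.4, 55.1 and 61.3 in input. The groups overlapped, but IP was the lower in each pair, by 0.34 to 0.93 on the log2 scale. This gave a fitted log2 ratio of -0.88 ± 0.17 (adjusted p = 0.0034). In Tet2dRBD the IP values of Cbx1 were 80.9, 62.7, 44.1 and 38.5 TPM against 95.0, 50.1, 63.0 and 63.8, with replicate 2 higher in IP and the other 3 lower. A fitted log2 ratio of -0.56 ± 0.17 passed narrowly (adjusted p = 0.040) and was kept in 6 of 20 alternative settings. It was lost without either Tet1 replicate, without Tet2 replicate 1, 3 or 4 and without Tet2dRBD replicate 1, 3 or 4. In Tet1 the 2 IP values of 56.5 and 53.5 TPM were below the inputs of 81.6 and 71.9, at a fitted log2 ratio of -0.63 ± 0.24 (adjusted p = 0.14).

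Cbx5, which encodes HP1α, did not pass in any line over all libraries. Its TPM was 33.7, 79.8, 24.7 and 23.4 in Tet2 IP against 26.0, 33.8, 23.1 and 23.7 in input, a fitted log2 ratio of 0.10 ± 0.18 (adjusted p = 0.68). Replicate 2 carried most of the rise, and without it the fitted log2 ratio was -0.11. In Tet2dRBD all 4 pairs had more Cbx5 in IP, with 51.3, 52.5, 36.1 and 34.9 TPM against 33.6, 27.1, 29.0 and 29.4, yet the fitted log2 ratio of 0.26 ± 0.18 did not pass (adjusted p = 0.33). In Tet1 both pairs had slightly less, at 35.7 and 34.0 TPM against 39.0 and 34.7, with a fitted log2 ratio of -0.23 ± 0.25.

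Atrx had the highest fitted ratio of the 10 members in each line over all libraries, a rank it lost in Tet2dRBD without replicate 1. In Tet2 its IP values were 5.03, 3.24, 3.61 and 3.76 TPM and its inputs 0.96, 1.49, 1.68 and 1.79. By TPM Atrx was above input in all 4 of these pairs, as were 46.5% of tested genes. It passed at a fitted log2 ratio of 1.10 ± 0.35 (adjusted p = 0.033), which was lost without Tet2 replicate 1, 3 or 4 and with replicates 3 and 4 summed (adjusted p = 0.069). In Tet1 the IP values of 4.17 and 3.61 TPM stood above inputs of 1.43 and 0.96, at a fitted log2 ratio of 1.58 ± 0.50 that missed the threshold in edgeR (adjusted p = 0.084), whereas DESeq2 called it. In Tet2dRBD the IP values were scattered, at 9.66, 1.04, 6.03 and 5.76 TPM against 1.46, 0.99, 2.47 and 4.77, and the log2 ratios ran from 0.04 in replicate 2 to 2.12 in replicate 1. At 0.80 ± 0.35 the fitted log2 ratio did not pass (adjusted p = 0.13), and without replicate 1 of Tet2dRBD it was 0.32, below Setdb1 at 0.51 and Suv39h2 at 0.44.

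**Figure D3:**
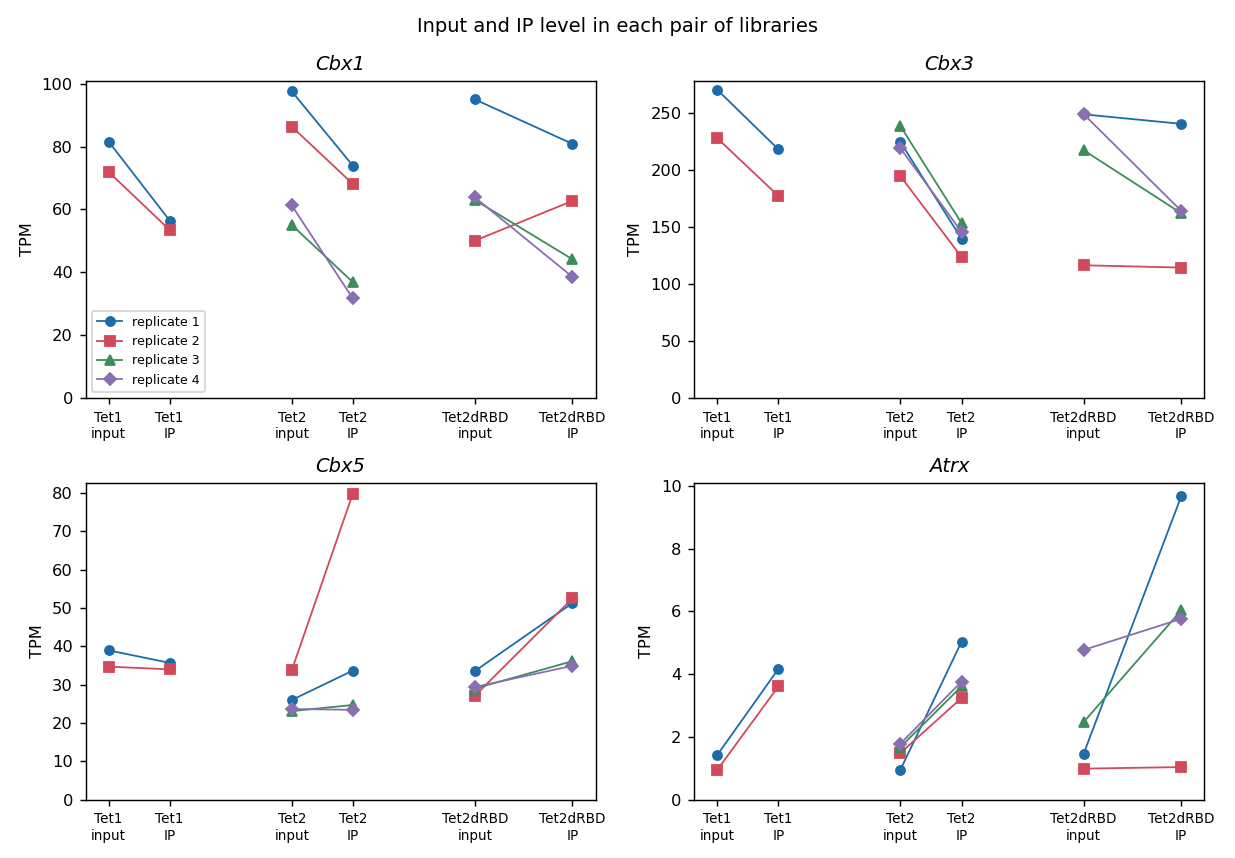
TPM of the HP1 genes Cbx1, Cbx3 and Cbx5 and of Atrx in input and IP, with a line joining the libraries of each pair and 1 symbol per replicate number. In Tet2 all 4 lines fall for Cbx1 and Cbx3 and all 4 rise for Atrx, whereas in Tet2dRBD replicate 2 of Cbx1 rises from 50.1 to 62.7 and replicate 2 of Atrx stays at about 1 TPM.

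Counted over the members, the fit on all libraries called 3 of 10 higher in Tet2 IP, where 14.6% of 13710 tested genes were called higher, and 2 of 10 lower, where 18.5% were. In Tet2dRBD it called 0 higher and 2 lower, against 7.4% and 12.1% of tested genes. In Tet1 it called 0 in either direction, against 2.72% higher and 3.18% lower. There 4 members had an unadjusted p under 0.05 (Atrx, Cbx1, Cbx3 and Suv39h2), as had 3224 of 13710 tested genes. Of the members DESeq2 called Atrx alone, and it called 11.5% of all tested genes. Leaving out Tet2dRBD replicate 1 brought the call of Atrx in Tet1, and leaving out Tet2dRBD replicate 2 that of Cbx1. The share of members called lower in Tet2 was near that of all tested genes, and the share called higher rests on 3 genes. The median fitted log2 ratio of the members was 0.22 in Tet2, 0.23 in Tet2dRBD and 0.07 in Tet1, beside 0.00, -0.01 and -0.04 over all tested genes. TPM ratios sit higher than fitted ones, as the median log2 TPM ratio of expressed genes was 0.12 to 0.38 in the 4 Tet2 pairs, 0.01 to 0.26 in Tet2dRBD and 0.05 and 0.11 in Tet1.

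Within the set of libraries that holds Tet1, which was fitted alone after seeing the data, more members passed, and more of all genes did. Each line has 2 pairs in this fit. In both Tet2 lines these are replicates 3 and 4, so the small spread may in part be technical. In Tet1 IP, Atrx, Suv39h2 and Trim28 were higher and Cbx1, Cbx3 and Cbx5 lower, against 19.6% and 27.2% of tested genes. In Tet2 IP, Atrx, Ehmt1, Setdb1 and Trim28 were higher and the 3 HP1 genes and Suv39h1 lower, against 24.7% and 25.1%. In Tet2dRBD IP, Atrx, Ehmt1, Ehmt2, Setdb1 and Trim28 were higher and Cbx1 and Cbx3 lower, against 24.2% and 24.9%. The log2 ratios of Cbx3 in this fit were -0.52 ± 0.06 in Tet1, -0.82 ± 0.06 in Tet2 and -0.79 ± 0.06 in Tet2dRBD, and those of Cbx1 were -0.66 ± 0.08, -0.97 ± 0.08 and -0.90 ± 0.08.

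To ask whether recovery depended on the RNA-binding domain, the fitted ratio in Tet2dRBD was subtracted from that in Tet2 within the fit. The 10 differences ran from -0.41 for Cbx3 to 0.33 for Ehmt1 on the log2 scale, and none passed (adjusted p = 1.0 for each). Of all tested genes, 0.0219% were called higher in Tet2. Cbx3 was the only member at an unadjusted p under 0.05, beside 416 of 13710 tested genes. Its difference was -0.41 ± 0.18, and -0.03 ± 0.09 in the set of libraries that holds Tet1. For Ehmt1 the difference was 0.33 ± 0.23 on all libraries and -0.04 ± 0.10 in that set. For Atrx it was 0.30 ± 0.49, with a standard error larger than the difference. DESeq2 also called 0 members, and 0.212% of all tested genes. The call of Ehmt1, Setdb1 and Atrx in Tet2 and not in Tet2dRBD is therefore not a tested difference between the lines.

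Between Tet1 and Tet2 the differences ran from -0.47 for Ehmt1 to 0.49 for Atrx, and none passed. At an unadjusted p under 0.05 there were 0 members, beside 517 of 13710 tested genes. DESeq2 called 0 members and 0.0948% of all tested genes. The edgeR fit on all libraries gave no call over the 13710 tested genes in this comparison in either direction. For Cbx3 the difference was 0.47 ± 0.22 (edgeR adjusted p = 0.94), and 0.30 ± 0.09 within the shared set of libraries, where it missed the threshold (adjusted p = 0.10). In that set Cbx3, Atrx, Cbx1, Ehmt1 and Trim28 had an unadjusted p under 0.05, as had 2918 of 13379 tested genes. These comparisons use the same Tet2 libraries as the comparison with Tet2dRBD.

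Fitted ratios rose with coding length over all tested genes, and the members were read beside this relation. Over the 12861 tested genes with a matched transcript, Spearman's rho between coding length and the fitted log2 ratio was 0.57 in Tet2, 0.48 in Tet2dRBD and 0.35 in Tet1, across genes that share the same libraries. For GC content the same values were -0.01, -0.08 and -0.13. In Tet2, the 2587 genes with coding sequences under 750 bases had a median fitted log2 ratio of -0.44 (quartiles -0.75 and -0.11), and the 1742 genes over 3000 bases had a median of 0.46 (quartiles 0.20 and 0.77). Cbx3 and Cbx1, at -0.96 and -0.88, lay below the lower quartile of the short class, and Cbx5 at 0.10 lay above its upper quartile. Setdb1 at 0.50 and Ehmt1 at 0.57 lay within the quartiles of the long class, Ehmt2 at 0.14 below them and Atrx at 1.10 above them. Suv39h2 at 0.60 exceeded the upper quartile of 0.16 for coding sequences from 750 to 1500 bases, and Trim28 at 0.29 lay within the quartiles of the class from 1500 to 3000 bases, which were -0.07 and 0.46. In Tet2dRBD the medians of the shortest and longest class were -0.30 and 0.27, and in Tet1 they were -0.24 and 0.19. By transcript length, for which rho in Tet2 was 0.43, Cbx5 and Suv39h2 stood apart less. Their transcripts have 8803 and 4327 bases and belong to the class of longest transcripts (3517 genes). Its quartiles in Tet2 were -0.04 and 0.60, so Cbx5 lay within them and Suv39h2 at the upper one. Cbx1 and Cbx3, with 1206 and 1735 effective bases, still lay below the lower quartile of the class under 2000, -0.59. The part of coding or transcript length in the members' ratios was not tested.

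**Figure D4:**
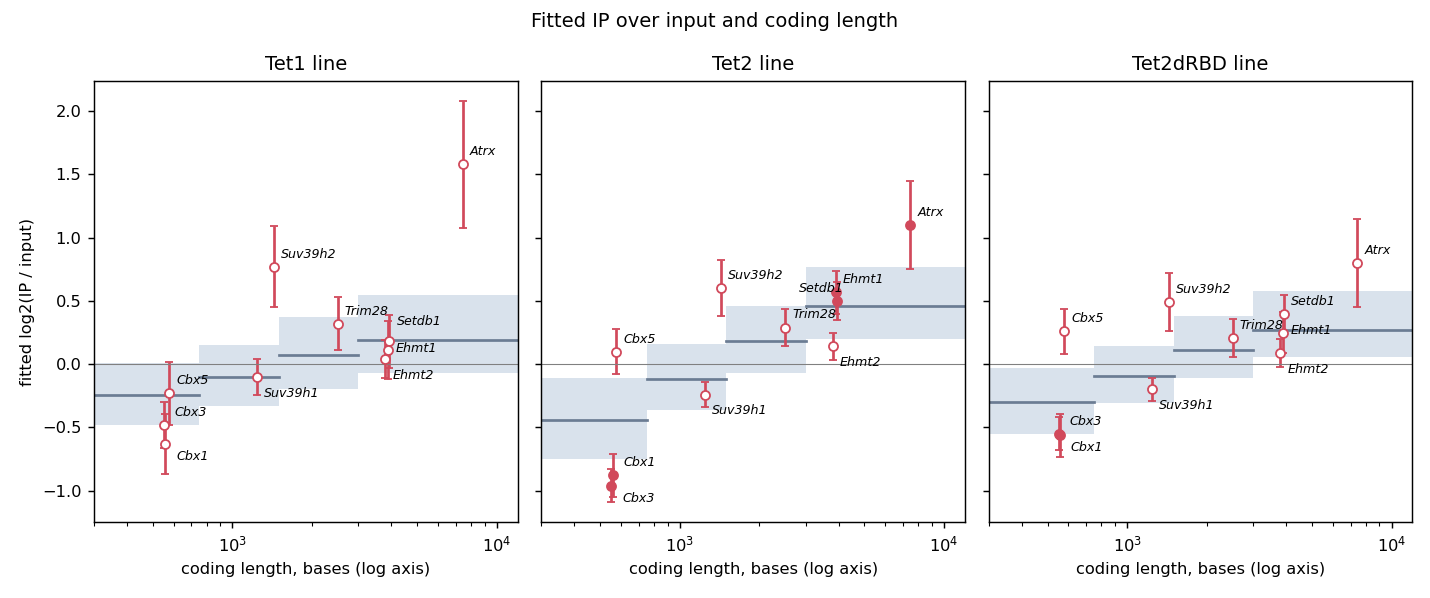
Fitted log2 ratio of IP over input with its SE against coding length in bases on a log axis, 1 panel per line; filled points passed the adjusted p threshold of 0.05, and the grey lines and bands are the median and quartiles of all tested genes in 4 classes of coding length. In Tet2, Cbx1 and Cbx3 lie under the band of the short class, Setdb1 and Ehmt1 within that of the long class and Atrx above it.

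The genes whose log2 TPM ratio was most like that of Atrx over the 10 pairs were Arfgef1 (Pearson's r = 0.992), Rbm27 (0.98) and Suz12 (0.979), with 68 of 8441 genes compared over 0.9. For Cbx3, the member with the lowest mean ratio, they were Ube2n (0.949), Bex4 (0.93) and Mrpl32 (0.911), and 4 genes were over 0.9. The pairs share libraries, depth and library sets, so these values describe likeness only.

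A wider list of 26 genes that act with these proteins was also followed, all of them measured and tested. In Tet2 IP, 6 were called higher, where 14.6% of all tested genes were, and 2 lower, where 18.5% were, with a list median of 0.29 on the log2 scale against 0.00 over all tested genes. The methyltransferase relative Setdb2 rose by a fitted log2 ratio of 1.46 ± 0.35, and the KRAB zinc finger gene Zfp809, which silences retroviruses through Trim28, rose by 2.30 ± 0.68 from input levels of 0.445 ± 0.0933 TPM (SD, n = 4). Daxx, the partner of Atrx, was at 0.68 ± 0.19, but its IP levels of 74.9, 317.1, 57.2 and 56.3 TPM, against 33.7, 77.6, 42.3 and 43.2 in input, set replicate 2 apart, and without Tet2 replicate 2 it was at 0.40 and not called. The HP1-binding proteins Adnp and Pogz were at 0.45 ± 0.15 and 0.40 ± 0.13, and Sgol1, which protects cohesin at centromeres, at 0.59 ± 0.20. Those that fell were Lbr, the lamin B receptor that binds HP1 at the nuclear envelope, at -0.88 ± 0.12, and Wiz, a zinc finger partner of Ehmt1 and Ehmt2, at -0.38 ± 0.10. In Tet2dRBD 2 were called higher and 2 lower, against 7.4% and 12.1% of all tested genes: Setdb2 (1.63 ± 0.36), Zfp809 (2.28 ± 0.66), Lbr (-0.93 ± 0.12) and Wiz (-0.42 ± 0.10). In Tet1, Setdb2 was higher at 2.10 ± 0.49 and Lbr lower at -0.85 ± 0.17, against 2.72% and 3.18% of all tested genes, with list medians of 0.13 in Tet2dRBD and 0.05 in Tet1. With each pair of libraries left out in turn, only the calls of Lbr in Tet2 and Tet2dRBD and of Setdb2 in Tet2 were kept throughout. In Tet2dRBD, Zfp809 fell to 1.53 without Tet2dRBD replicate 1. None of the 26 was called for a difference between lines, with 0 at an unadjusted p under 0.05 in either comparison. Of 13710 tested genes, 416 were under it for Tet2 minus Tet2dRBD and 517 for Tet1 minus Tet2.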

How the data were processed

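The 20 RIP-Seq libraries were grouped by the sample labels, and each IP was paired with the input of the same replicate number. Per the labels and the methods, the authors mapped reads to mm9 with RefSeq transcripts and RSEM, with FastQC, Trimmomatic and Bowtie2 also named, and deposited, for each gene, expected counts without normalization, FPKM values, which were not used here, and a score equal to TPM plus a pseudocount of 1. TPM was taken as that score minus 1. Tool versions and library strandedness are not given in the sources used here. The IgG reactions described in the methods were not analysed here.

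Expected counts were rounded to whole numbers and tested with edgeR 4.0.16 in R 4.3.3 by the quasi-likelihood test, with TMM normalization, every IP and input pair as a block, 1 IP effect per line and 7 residual degrees of freedom. A gene was tested if at least 2 libraries had 1 CPM, and calls needed a Benjamini-Hochberg adjusted p under 0.05. Inputs were compared in a fit on the 10 inputs with no block. The SE is the log2 ratio divided by the square root of F. Deviations of same-numbered IP and input from their group means correlated at 0.60 to 0.85 in Tet2 and at 0.57 to 0.84 in Tet2dRBD, above 0.1 in every pair, and the numbers were kept as pairs. Differently numbered IP and input reached 0.77 and 0.68. Those above 0.1 were all between replicates 3 and 4, which these values do not tell apart. In Tet1 the value was 0.19 over 2 replicates. Alternatives used DESeq2 1.42.0, RLE normalization, limma 3.58.1 on log2 TPM with a pseudocount of 1 or 0.1, no block, no filter, the compared lines alone, replicates 3 and 4 summed, each replicate left out and an IP at least 1.5 times input. Fits on the set of libraries that holds Tet1 and without replicate 2 of both Tet2 lines were added after seeing the data. Only the input comparison of Tet1 and Tet2 within that set had been planned. The tests were checked on simulated counts of 13522 genes, with 100 genes changed 2-fold and 100 changed 4-fold in Tet2 IP. For Tet2 IP against input, edgeR called 70% of the 2-fold and 96% of the 4-fold changes, with 15 false calls. For Tet2 minus Tet2dRBD it called 35% and 92%, with 9 false calls, so that test misses many changes of 2-fold or less. The members, the wider list and the tests were chosen with earlier results of these data known. The genes named from the wider list are those called in any IP comparison, at most 8 by smallest adjusted p. In the files, Fam208a (now Tasor) is listed as D14Abb1e, and 2810474O19Rik is now Resf1. Gene positions and sequences are those of gencode vM1 on NCBIM37 (mm9), taking for each gene the transcript with the longest coding sequence among those with both UTRs annotated. Plots were drawn with matplotlib 3.10.9.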

Additional observations from a re-analysis of the deposited data

Results flagged for a closer look

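Trim28 TPM had 1 library far from the others in 3 groups of 4, in each case replicate 2. The gap to the nearest library was 0.958 of the range in Tet2 IP, 0.83 in Tet2 input and 0.925 in Tet2dRBD IP. The log2 ratio of Ehmt1 was far above the others in replicate 2 of Tet2 (0.888 of the range) and far below them in replicate 2 of Tet2dRBD (0.837), and that of Atrx was far above them in replicate 1 of Tet2 (0.983). These are 6 of 60 groups examined, where chance gives about 1 in 20, or 3. Cbx5 was below input in both Tet1 pairs and above it in all 4 Tet2dRBD pairs, a difference of mean log2 ratios of -0.59, Tet1 minus Tet2dRBD, that was not tested.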

How the results depend on the processing

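The counts of members called moved with the setting. Without the replicate block, 0 members were called in Tet2 IP and 0 in Tet2dRBD IP, where 2.74% and 0.336% of all tested genes were called. By mean IP against mean input 8 members were above input in Tet2dRBD. With limma on log2(TPM + 1) or on log2(TPM + 0.1), 8 were called in Tet2 and 5 in Tet2dRBD, and with a pseudocount of 1 the split over all tested genes moved to 35.0% higher and 8.12% lower in Tet2 and to 23.5% and 4.59% in Tet2dRBD. DESeq2 called 1 in Tet1 and 4 in Tet2dRBD, where 11.5% and 23.9% of all tested genes were called. RLE normalization left 1 in Tet2dRBD, where 18.6% were called. Fitting the compared lines alone gave 7 in Tet1, where 55.0% of all tested genes were called, and 0 in Tet2dRBD, where 5.64% were. Summing replicates 3 and 4 gave 3 in Tet2 and 0 in Tet2dRBD, where 23.4% and 7.79% of tested genes were called. In the set of libraries that holds Tet1, the calls were 6 in Tet1, 8 in Tet2 and 7 in Tet2dRBD. Of tested genes, 46.8%, 49.9% and 49.1% were called there. Between Tet1 and Tet2 inputs 6 members were called, beside 49.8% of tested genes. Between Tet2dRBD and Tet2 inputs 3 were, beside 20.9%. In that set 7 members were above input in Tet2dRBD. Leaving out replicate 2 of both Tet2 lines gave 4 in Tet1, where 20.9% of tested genes were called. An IP at least 1.5 times input left 2 members in Tet1, 1 in Tet2 and 0 in Tet2dRBD. The share of all tested genes was not computed for this rule, nor for the other counts above input in this section.

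Leaving out 1 replicate at a time gave 0 to 1 calls in Tet1, 3 to 6 in Tet2 (3 without Tet2 replicate 1) and 0 to 3 in Tet2dRBD (0 without Tet2dRBD replicate 3), and 4 to 7 members above input in Tet2dRBD (7 without its replicate 2). Of the calls in Tet2 IP, Cbx1 and Cbx3 were kept in 19 of 20 settings, Ehmt1 in 18, Setdb1 in 16 and Atrx in 15. In Tet2dRBD IP, Cbx3 was kept in 14 and Cbx1 in 6. The sign turned for Suv39h1 with limma on TPM (0.05, 0.08 and 0.07 in Tet1, Tet2 and Tet2dRBD, with either pseudocount), for Cbx5 in Tet2 (-0.11 to 0.20 with 1 replicate left out, the lowest without Tet2 replicate 2, and -0.11 without replicate 2 of both lines) and in the set that holds Tet1 (-0.17), and in that set for Suv39h2 in Tet2dRBD (-0.01) and for the Tet2 minus Tet2dRBD difference of Ehmt1 (-0.04). The cause was not tested.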
